A study of Mus musculus with 20 samples.

Results

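The 29 genes described here are 11 genes of B cells and 18 genes of T cells, taken from a list of names. Of these, 27 have a probe set that carries their symbol alone, 11 of B cells and 16 of T cells, out of 18194 genes with such a probe set on the array. Lck and Tcf7 were not analysed here. Each gene is given by the probe set with the highest mean over the 20 arrays, from 42 probe sets in all. Above an intensity of 100 in at least 5 of the 20 arrays, the limit used for testing, were 10 of the 11 B cell genes and all 16 measured T cell genes. Pax5 stayed below that limit and is given without a test against other genes.

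Visceral fat was taken from female C57BL/6J mice that differed in diet and in pregnancy, and RNA of each mouse was hybridized to 1 Affymetrix whole-genome mouse array without pooling. HF pregnant mice were on a diet with 58% fat and were killed in late gestation (E18.5). HF non pregnant mice were on the same diet, and control pregnant (E18.5) and control non pregnant mice were on a low fat control diet with 10% fat. The methods give fat as a share of energy, and name sucrose for the HF diet and corn starch for the control diet. Each group held 5 mice, and the study set pregnancy on the HF diet against HF non pregnant and control pregnant mice. The labels give the E18.5 age for every mouse, also for the non pregnant ones. They call the depot visceral fat, where a legend of the study names mesenteric fat for the arrays, and the methods state that lymph nodes that could be seen were cut out of the fat before it was frozen. The arrays carry 45101 probe sets, of which 19802 (43.9%) passed the limit, and array medians lay between 60.7 and 64.7. Fat cell genes such as Adipoq and Fabp4, which encode adiponectin and the fatty acid binding protein of adipocytes, were among the brightest genes of every array, with mean log2 intensities of 14.37 and 14.73. Pancreatic acinar genes, which fat should lack, stood far above the other arrays in control pregnant mouse 2 (mean log2 deviation 5.96) and control non pregnant mouse 4 (5.65), so values without both mice are given where they move a result.

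B cells carry an antigen receptor made of a membrane immunoglobulin and the signalling chains Cd79a and Cd79b. T cells carry a receptor for antigen peptides whose signals pass through the Cd3 chains and the kinases Lck and Zap70. Visceral fat holds both kinds of lymphocyte as single cells, in small clusters in and beside the fat, and in the lymph nodes that lie in it. Because each array measured whole tissue, fewer lymphocytes and less RNA per lymphocyte cannot be told apart.

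Promoter windows at the gene starts, which can also hold transcribed bases, were looked at because the members moved together from mouse to mouse, as described below. RefSeq promoters of the GRCm38.p6 build were at hand for 17 of the 27 measured genes, 24 promoters in all, each 300 bases long. Cd79a and Cr2 of the B cell genes and Cd3d of the T cell genes are shown, each of which varied widely between mice. Capitals mark the letters GGAAGT or CTTTGA on either strand, the cores bound by ETS and by TCF and LEF factors.
Cd79a promoter, chr7:24897247-24897546, plus strand: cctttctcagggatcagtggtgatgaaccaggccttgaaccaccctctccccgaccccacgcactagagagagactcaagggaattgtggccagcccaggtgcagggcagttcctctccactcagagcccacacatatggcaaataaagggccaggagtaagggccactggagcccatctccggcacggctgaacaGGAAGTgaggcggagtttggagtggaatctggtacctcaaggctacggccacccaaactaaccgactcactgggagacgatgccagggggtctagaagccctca
Cr2 promoter, chr1:195176670-195176969, minus strand: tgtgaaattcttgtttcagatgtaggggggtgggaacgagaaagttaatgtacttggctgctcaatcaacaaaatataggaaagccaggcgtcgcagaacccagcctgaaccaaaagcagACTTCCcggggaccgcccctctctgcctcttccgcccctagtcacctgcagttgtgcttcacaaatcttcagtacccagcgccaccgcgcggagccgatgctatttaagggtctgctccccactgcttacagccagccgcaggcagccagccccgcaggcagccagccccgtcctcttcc
Cd3d promoter, chr9:44981536-44981835, plus strand: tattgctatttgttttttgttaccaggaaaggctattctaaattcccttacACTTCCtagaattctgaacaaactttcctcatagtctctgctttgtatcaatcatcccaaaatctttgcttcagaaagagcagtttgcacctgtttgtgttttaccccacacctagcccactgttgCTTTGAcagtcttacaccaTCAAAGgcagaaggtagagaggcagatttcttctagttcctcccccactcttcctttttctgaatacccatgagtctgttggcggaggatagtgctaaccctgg

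The ETS letters stood in 4 of the 9 promoters of B cell genes (44.4%) and in 6 of the 15 promoters of T cell genes (40.0%), against 7809 of all 32851 promoters (23.8%). Genes with them were Cd79a, Cr2, Cd37 and Fcer2a on the B cell side and Cd3d, Cd3e, Cd5, Il7r, Lef1 and Zap70 on the T cell side. The TCF and LEF letters were in 0 of 9 B cell and 4 of 15 T cell promoters (26.7%), against 16% of all promoters. The RUNX letters TGTGGT were in 1 of 9 (11.1%) and 2 of 15 (13.3%), against 16.8%, and the EBF letters CCCNNGGG in 1 of 9 and 2 of 15, against 13.7%. The octamer ATGCAAAT, a site of Oct factors in immunoglobulin genes, was in 0 of the 24 promoters and in 1.74% of all. Such matches describe the letters of these windows and are not shown to be bound. Several promoters belong to the same gene, and the motifs were searched on both strands.

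Over the 20 mice, the highest intensity of a B cell gene was between 5.05 times (Pax5) and 89.97 times (Pou2af1) its lowest. Cd79a, the alpha signalling chain of the B cell receptor, had intensities of 199, 147, 223, 225 and 39.0 in HF pregnant mice 1 to 5, of 299, 65.4, 144, 111 and 536 in HF non pregnant mice, of 26.5, 315, 49.9, 240.0 and 75.3 in control pregnant mice, and of 26.5, 29.1, 121, 61.4 and 184 in control non pregnant mice. HF pregnant mouse 5 lay far below the other mice of its group, and the groups overlapped. The beta chain Cd79b had 1162, 1056, 1538, 1464 and 145 in HF pregnant mice, 2085, 366, 922, 757 and 3613 in HF non pregnant mice, 42.0, 2036, 198, 1504 and 449.9 in control pregnant mice, and 115, 144, 545, 417 and 1124 in control non pregnant mice. Its highest value, in HF non pregnant mouse 5, was 86.1 times its lowest, in control pregnant mouse 1.

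Ms4a1, which encodes the B cell surface protein CD20, was the brightest of the B cell genes. It had 2263, 1996, 3064, 3041 and 357 in HF pregnant mice, 4004, 751, 1919, 1308 and 6547 in HF non pregnant mice, 80.9, 3632, 457, 2884 and 885 in control pregnant mice, and 285, 349, 1169, 834 and 1935 in control non pregnant mice. Cr2, the complement receptor that joins the B cell coreceptor and is also made by follicular dendritic cells, had 675, 602, 689, 749 and 48.8 in HF pregnant mice, 988, 175, 401, 299 and 1724 in HF non pregnant mice, 38.2, 999, 100.4, 779.8 and 215 in control pregnant mice, and 36.3, 54.3, 325, 199.6 and 428 in control non pregnant mice. For both genes HF non pregnant mouse 5 was the highest of 20, and each group held mice on both sides of the mean over all arrays.

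Fcer2a, the low affinity IgE receptor of mature B cells, had 566, 523, 769.6, 695 and 71.5 in HF pregnant mice, 1192, 227, 449, 393 and 1725 in HF non pregnant mice, 51.6, 1007, 97.0, 740.1 and 243 in control pregnant mice, and 56.1, 65.5, 278, 217 and 539 in control non pregnant mice. Pax5, the factor that fixes B cell identity, was dim, with 68.6, 67.1, 72.7, 63.1 and 43.6 in HF pregnant mice, 105, 37.5, 67.8, 56.5 and 186 in HF non pregnant mice, 46.5, 111, 36.8, 63.2 and 48.4 in control pregnant mice, and 40.4, 40.8, 52.0, 42.5 and 71.5 in control non pregnant mice. It exceeded 100 in 3 mice, HF non pregnant mice 1 and 5 and control pregnant mouse 2, which were also the 3 highest mice for Cd79a. HF non pregnant mouse 5 was the highest mouse for the remaining B cell genes too. Cd22, an inhibitory coreceptor, lay between 200.03 and 3128, Blk, a Src family kinase of the B cell receptor, between 69.2 and 672, and Cd37, a tetraspanin, between 89.9 and 1707. Cxcr5, the receptor that guides cells into follicles, lay between 13.8 and 612, and Pou2af1, the coactivator of Oct factors, between 22.6 and 2029, the widest ratio of any member.

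T cell genes followed the same mice. Cd3d, the delta chain of the Cd3 complex, had 894, 756, 1005, 896 and 75.6 in HF pregnant mice, 1250.4, 248, 652, 539 and 1949 in HF non pregnant mice, 65.5, 1844, 183, 1202 and 459 in control pregnant mice, and 104, 61.1, 534, 426 and 827 in control non pregnant mice. Cd3g, the gamma chain, had 704, 582, 791, 782 and 43.9 in HF pregnant mice, 1027, 192, 530.4, 422 and 1614 in HF non pregnant mice, 41.1, 1370.3, 124, 1036 and 361 in control pregnant mice, and 81.9, 33.3, 359, 329.6 and 648 in control non pregnant mice. Lowest for both was control non pregnant mouse 2, with control pregnant mouse 1 and HF pregnant mouse 5 close by.

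Cd3e, the epsilon chain, moved far less on this array, with 227, 237, 254, 253 and 134 in HF pregnant mice, 305, 160.0, 194, 194 and 326 in HF non pregnant mice, 206, 385, 139, 246 and 211 in control pregnant mice, and 113, 134, 197, 179.9 and 265 in control non pregnant mice. Cd4, the coreceptor of helper T cells, had 141, 145, 156, 137 and 99.98 in HF pregnant mice, 173, 102, 124, 99.1 and 172 in HF non pregnant mice, 106, 185, 78.5, 132 and 138 in control pregnant mice, and 90.2, 108, 119, 118 and 130.1 in control non pregnant mice. Their ranges over the 20 mice were 3.42-fold and 2.35-fold, against 31.9-fold for Cd3d. The coreceptor chain of cytotoxic T cells, Cd8a, had 274, 239, 285, 303 and 62.7 in HF pregnant mice, 409, 114, 193, 162 and 549 in HF non pregnant mice, 87.9, 403, 82.8, 377 and 162 in control pregnant mice, and 90.2, 78.7, 169, 155 and 219 in control non pregnant mice. Cd8b1, its partner chain, had 359.5, 319.9, 434, 379.7 and 21.2 in HF pregnant mice, 663, 115, 271, 222 and 776 in HF non pregnant mice, 23.6, 735, 61.1, 587 and 192 in control pregnant mice, and 36.2, 16.6, 232, 223 and 361 in control non pregnant mice, a 46.8-fold range.

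Ccr7, the chemokine receptor that brings naive T cells into lymph nodes, had 659.6, 634, 667, 586 and 35.7 in HF pregnant mice, 898, 178, 355, 320.4 and 913 in HF non pregnant mice, 24.2, 823, 74.4, 680.4 and 339 in control pregnant mice, and 37.2, 37.3, 289.6, 336 and 592 in control non pregnant mice. HF pregnant mice 1 to 4 lay close together and above control non pregnant mice 1 to 4, but the groups overlapped. HF pregnant mouse 5 (35.7) lay below every control non pregnant mouse. Control non pregnant mouse 5 (592) lay above HF pregnant mouse 4 (586). Ltb, the lymphotoxin beta chain through which lymphocytes build lymphoid tissue, was the brightest T cell gene, with 2442, 2063, 2851, 2843 and 218 in HF pregnant mice, 3495, 668, 1762, 1287 and 5696 in HF non pregnant mice, 89.7, 4069, 391, 3169.8 and 1137 in control pregnant mice, and 197, 194, 1192, 918 and 2122 in control non pregnant mice. Among the adhesion and costimulatory receptors, the lowest and highest mouse were 79.6 and 1422 for Cd2, 22.2 and 489 for Cd5, 47.1 and 364 for Cd6, 22.9 and 299.6 for Cd27 and 18.2 and 489 for Cd28. The interleukin 7 receptor Il7r lay between 104 and 1629, and Lef1, a factor of naive T cells, between 94.3 and 1298.

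Zap70, the kinase recruited to the phosphorylated T cell receptor, was the exception, with 292, 335, 297, 291 and 359 in HF pregnant mice, 282, 294, 286, 309.7 and 289 in HF non pregnant mice, 384, 259, 289.8, 264 and 341 in control pregnant mice, and 319, 337, 313, 286 and 294 in control non pregnant mice. This brightest of its 3 probe sets was highest in control pregnant mouse 1 and HF pregnant mouse 5, which were among the lowest mice for the other T cell genes. Its deviations from the group means correlated with the mean of the T cell genes at r = -0.74, where those of its other 2 probe sets did so at 0.96 and 0.95 (n = 20 mice). The probe sets of Cd8a also disagreed, with 4 of 5 at r between 0.97 and 0.99 and the remaining one at 0.15. The flat values of Zap70 belong to 1 probe set and not to the gene as a whole.

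**Figure D1:**
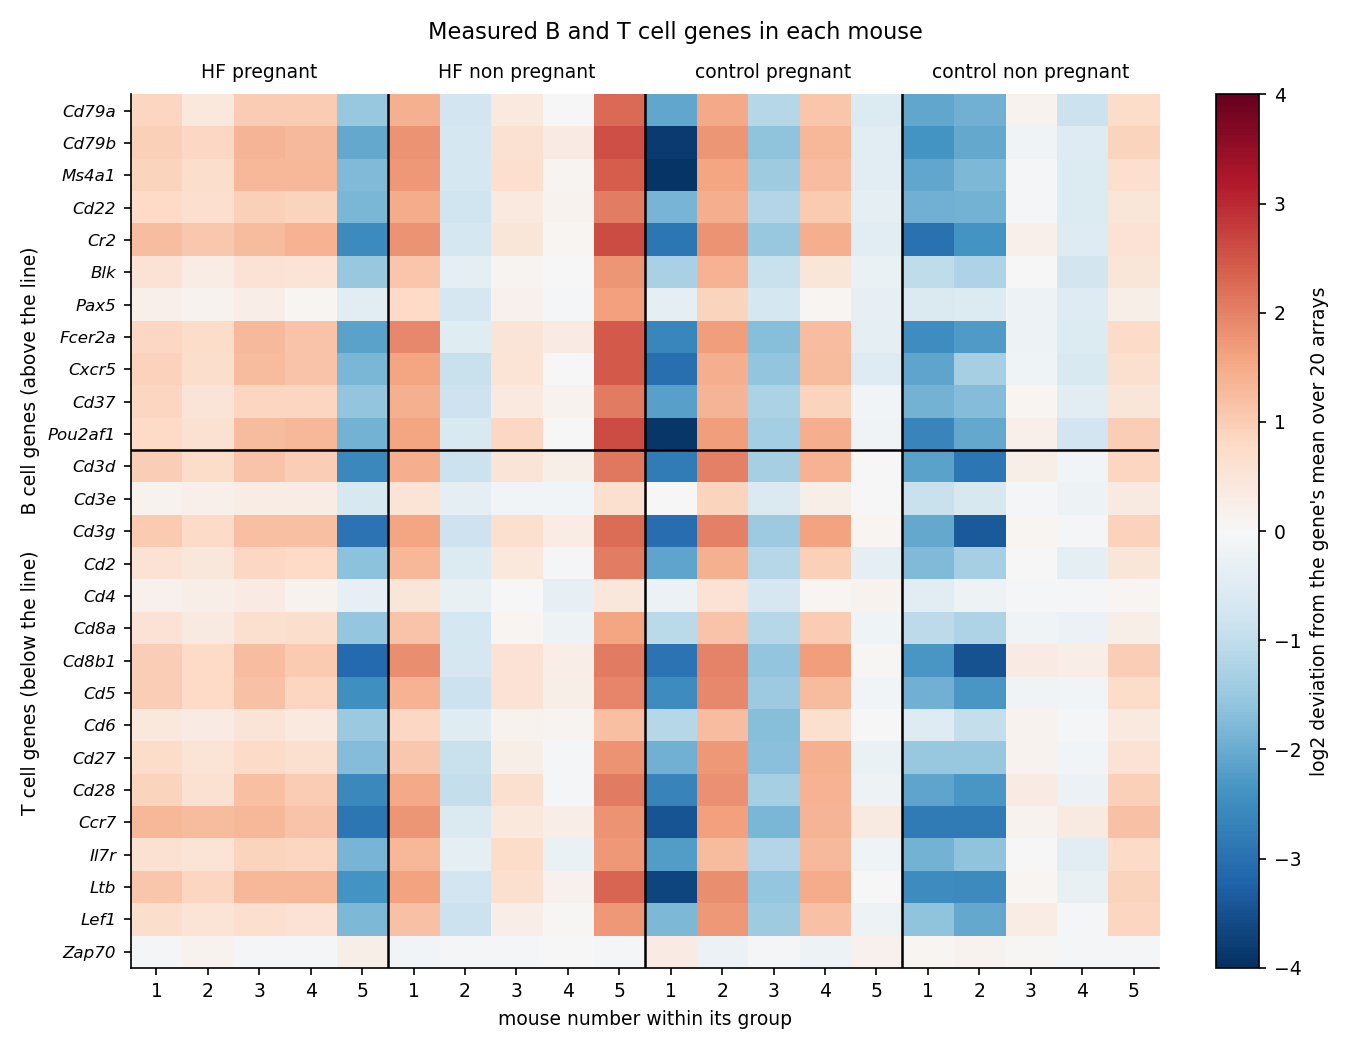
Each row is a measured gene (B cell genes above the line, T cell genes below it) and each column a mouse, with the 5 mice of each group side by side. The colour gives the log2 deviation of the gene from its mean over the 20 arrays, and most rows are red or blue in the same mice, such as HF non pregnant mouse 5 (high) and control pregnant mouse 1 (low), while Cd3e, Cd4 and Zap70 are pale throughout.

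Summarised per mouse as the mean log2 deviation of the genes from their means over all arrays, the 11 B cell genes stood at 0.81, 0.61, 1.04, 0.999 and -1.74 in HF pregnant mice and at 1.52, -0.68, 0.47, 0.10 and 2.27 in HF non pregnant mice. They stood at -2.54, 1.51, -1.30, 1.05 and -0.36 in control pregnant mice and at -2.01, -1.75, -0.02, -0.59 and 0.63 in control non pregnant mice. The means were 0.35 ± 1.18 in HF pregnant mice, 0.73 ± 1.17 in HF non pregnant mice, -0.33 ± 1.67 in control pregnant mice and -0.75 ± 1.13 in control non pregnant mice (SD, n = 5 each). For the 16 T cell genes they were 0.20 ± 1.15 in HF pregnant mice, 0.51 ± 0.90 in HF non pregnant mice, -0.15 ± 1.45 in control pregnant mice and -0.56 ± 1.09 in control non pregnant mice. Both orders put HF non pregnant mice highest and control non pregnant mice lowest, and each neighbouring pair of groups differed by less than 1 SD. In control pregnant mouse 1 only 6 of the 27 genes exceeded an intensity of 100, against all 27 in HF non pregnant mice 1 and 5 and control pregnant mouse 2.

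**Figure D2:**
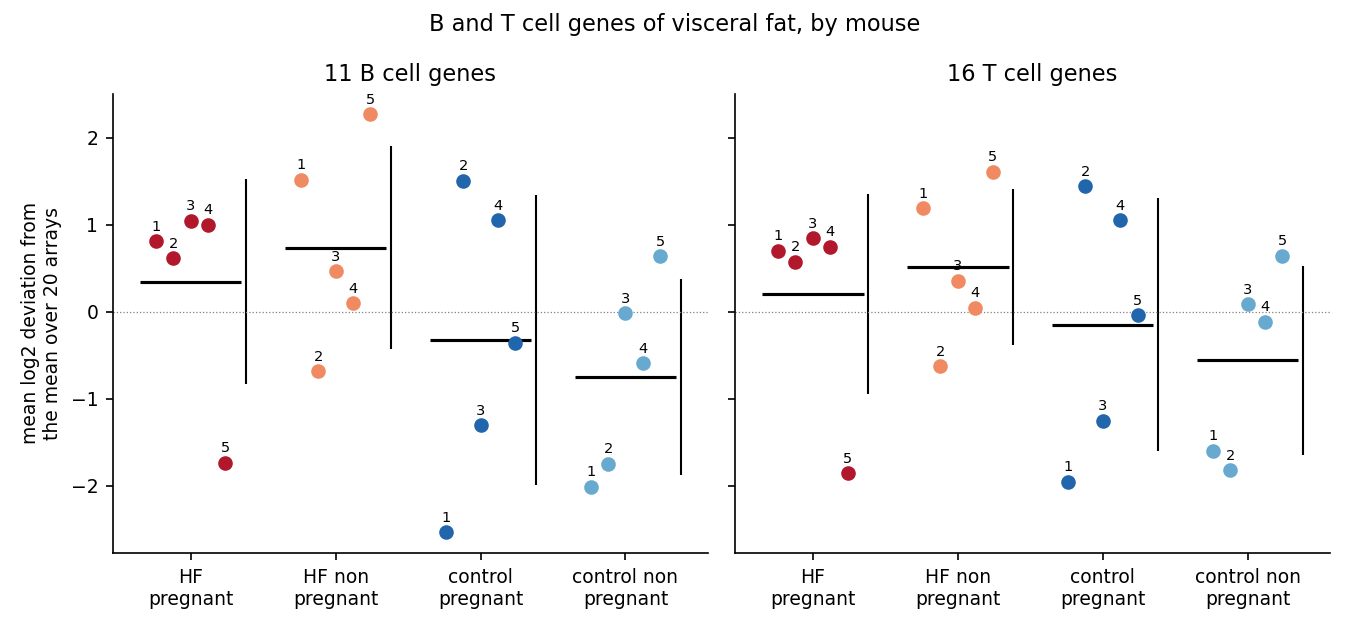
Mean log2 deviation of the 11 B cell genes (left) and the 16 T cell genes (right) from their means over 20 arrays, with 1 numbered point per mouse, the group mean as a horizontal line and 1 SD to either side as a vertical line (n = 5). All 4 groups overlap, and HF pregnant mouse 5, at -1.74 and -1.86, lies apart from the 4 other HF pregnant mice.

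Without pregnancy, every B cell gene and 15 of 16 T cell genes had a higher mean in HF than in control mice, and none passed the test. Of the 19802 kept probe sets, 10219 had the higher mean in HF mice. Because the members moved together within groups, as described below, their signs are not separate observations. The median log2 difference was 1.46 for the B cell genes and 1.26 for the T cell genes, against 0.01 for all kept probe sets. Limma, which fits the 4 groups with 1 spread per probe set, called 0 of 26 genes after Benjamini-Hochberg adjustment (threshold 0.05), and 0.0% of all kept probe sets. At an unadjusted p under 0.05 it picked 1 of the 26, Fcer2a, and 17.7% of all kept probe sets. Fcer2a differed by 1.89 on the log2 scale (SE 0.88, adjusted p = 0.281 by limma), Cr2 by 1.87 (SE 0.99), Cd79b by 1.77 (SE 0.97) and Cd79a by 1.46 (SE 0.75). On the T cell side Cd3g differed by 1.68 (SE 1.04), Ltb by 1.68 (SE 1.01) and Cd3d by 1.49 (SE 0.95), Cd4 by 0.22 and Zap70 by -0.08. Limma can also weight arrays by how close each lies to its group mean in these same data, which lowers the weight of outlying mice. With such weights it called 12 of the 26 genes, among them Cd79a, Cd79b, Ms4a1, Cr2 and Fcer2a. The same fit called 7489 of all kept probe sets. These weights ran from 0.233 for control pregnant mouse 1 to 11.3 for HF non pregnant mouse 3, with 0.238 for HF non pregnant mouse 5, the mouse highest in both lists.

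At E18.5, HF pregnant mice had the higher mean for all 11 B cell genes and for 15 of 16 T cell genes, with median log2 differences of 0.73 and 0.37 against control pregnant mice, where all kept probe sets had a median of 0.05. The mean was also higher in HF pregnant mice for 11876 of the 19802 kept probe sets. Ms4a1 differed by 1.09 (SE 0.92, adjusted p = 0.577 by limma), Cd79b by 1.03 (SE 0.97) and Cxcr5 by 0.92 (SE 0.84), while Ltb and Ccr7 led the T cell genes at 0.82 each (SE 1.01 and 1.06). Limma called 0 of the 26 genes against 0.192% of all kept probe sets, and at an unadjusted p under 0.05 it picked 0 genes against 12.8%. Single mice moved these medians. Without control pregnant mouse 1 they were 0.13 for B cell and -0.09 for T cell genes, and without control pregnant mouse 3 they were 0.39 and 0.06. Leaving out HF pregnant mice 1 to 4 in turn gave T cell medians between 0.17 and 0.25. Without HF pregnant mouse 5 the B and T cell medians were 1.36 and 0.92, and without control pregnant mouse 2, the mouse highest in pancreatic genes, 1.24 and 0.83.

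Pregnancy on the HF diet, the comparison at the centre of the study, left no gene of either list past the test. Set against HF non pregnant mice, HF pregnant mice had a median log2 difference of -0.36 for B cell genes, all 11 with a negative sign, and -0.34 for T cell genes, 14 of 16 with a negative sign, against -0.01 for all kept probe sets. A negative sign was found for 10619 of the 19802 kept probe sets. Among the largest differences of the members were Cd8b1 at -0.63 (SE 1.07), Fcer2a at -0.57 (SE 0.88) and Cd3g at -0.54 (SE 1.04), each smaller than its standard error. Every adjusted p was 0.9999 by limma. Of all kept probe sets 0.0252% were called, and 4.66% had an unadjusted p under 0.05, against 0 of the 26 genes in either count. The sign turned without HF pregnant mouse 5, with medians of 0.16 and 0.20, and without HF non pregnant mouse 5 they were -0.01 and -0.04.

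On the control diet, pregnant mice had the higher mean for 11 of 11 B cell genes and 15 of 16 T cell genes, with medians of 0.40 and 0.42 against 0.00 for all kept probe sets. Of the 19802 kept probe sets, 9982 had the higher mean in pregnant mice. Among the members Cd3g had the largest difference at 0.73 (SE 1.04), followed by Cr2 at 0.71 (SE 0.99). Limma called 0 of 26 genes and 0.0% of all kept probe sets, and picked 0 genes against 2.9% at an unadjusted p under 0.05. Without control pregnant mouse 2 the medians were 0.02 and 0.01, and without control pregnant mouse 1 they were 1.02 and 0.89. With both pancreatic arrays left out, the B cell median was -0.04 and the T cell median 0.10.

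The response to pregnancy differed between the diets by a median of -0.81 for the B cell genes and -0.76 for the T cell genes, more negative on the HF diet, with 0.0% of all kept probe sets called and 3.08% at an unadjusted p under 0.05. Cd8b1 stood at -1.31, Cd3g at -1.26 and Fcer2a at -1.16, and no member passed either limit (smallest adjusted p = 0.933 by limma). With both pancreatic arrays left out the medians were -0.38 and -0.44, without HF pregnant mouse 5 -0.31 and -0.25, and without control pregnant mouse 1 -1.35 and -1.31. Averaged over pregnancy, HF minus control gave medians of 1.19 and 0.85, with Cd79b at 1.40 (SE 0.69) and Ms4a1 at 1.35 (SE 0.65). Fcer2a, at 1.31 (SE 0.62), had the smallest p of the members, 0.05005 before and 0.169 after adjustment. Here 1.24% of all kept probe sets were called and 29.6% had an unadjusted p under 0.05, against 0 of the 26 genes in either count. These 246 probe sets became 4321 without control pregnant mouse 2, 2011 without both pancreatic arrays and 42 without control pregnant mouse 1. Each time 0 members were called. The smallest adjusted p of a member by limma was 0.066 without control pregnant mouse 2 and 0.083 without both pancreatic arrays. It was 0.323 without control pregnant mouse 1. Without both pancreatic arrays the B and T cell medians were 1.45 and 1.07. Weighted arrays called 15 of the 26 genes in this comparison, together with 9136 of all kept probe sets. Averaged over diet, pregnant minus non pregnant gave medians of -0.01 and 0.05 (-0.20 and -0.09 without both pancreatic arrays), 0 genes past either limit, 0.0101% of probe sets called and 4.59% at an unadjusted p under 0.05.

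**Figure D3:**
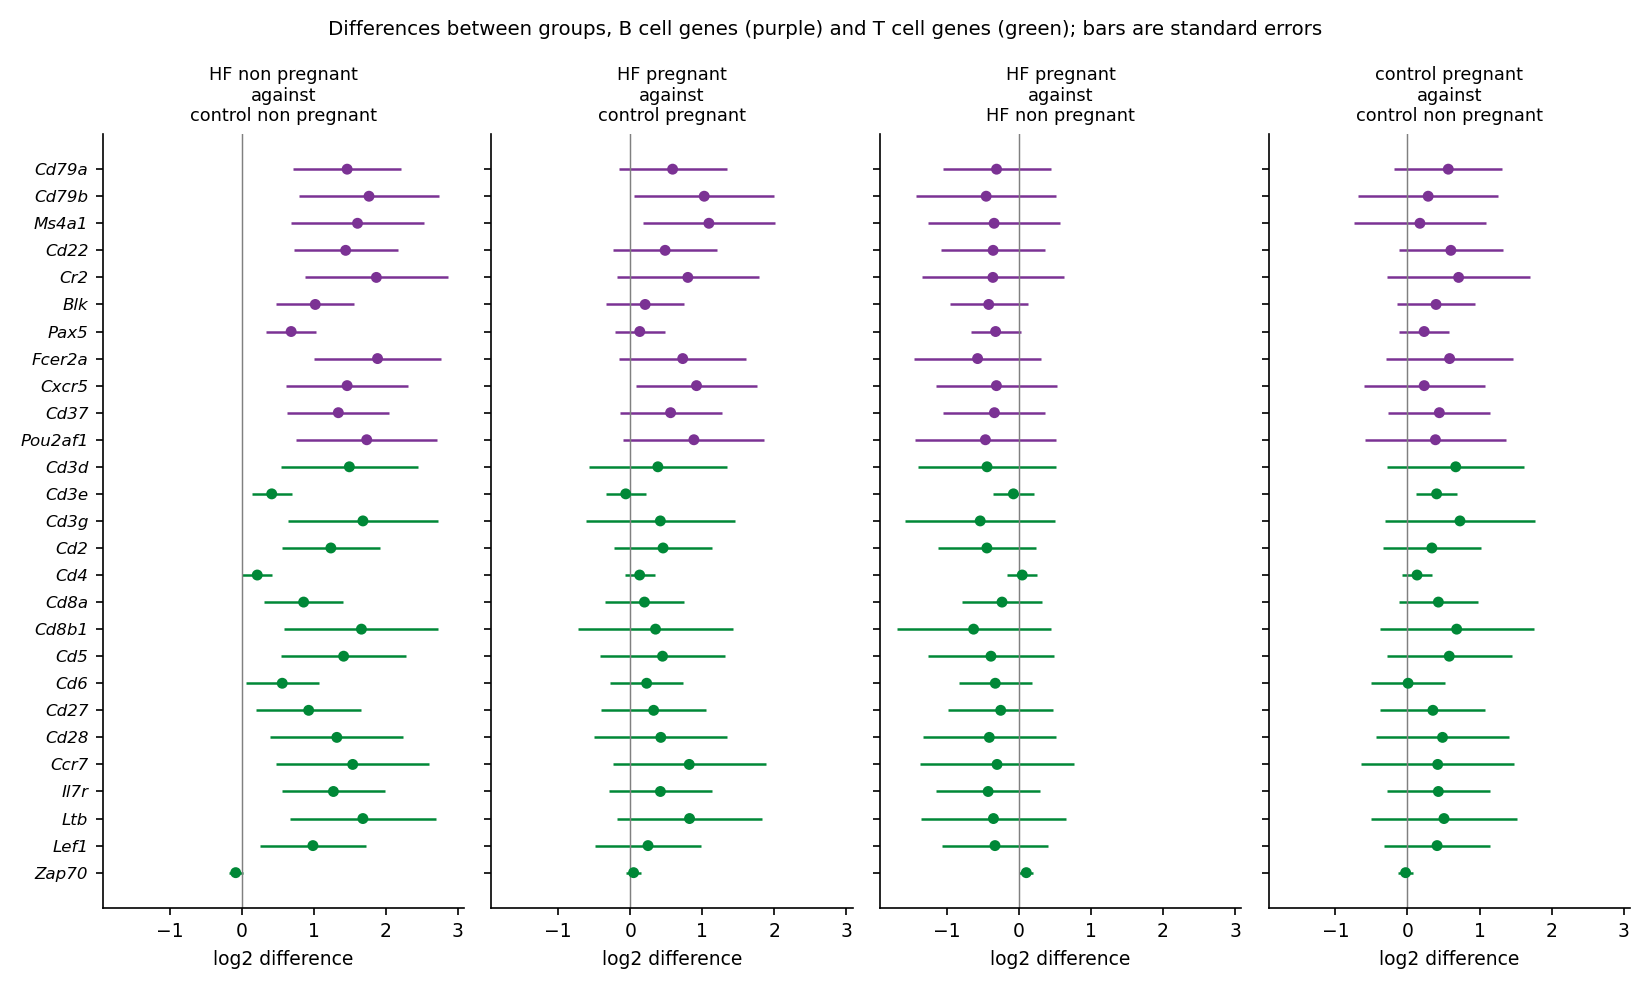
Log2 difference between groups (x axis, the first named group minus the second) for each measured gene, with its limma standard error as a bar and B cell genes in purple above T cell genes in green. The points lie to the right of 0 for 26 of 27 genes in HF non pregnant against control non pregnant mice. They lie mostly to the left in HF pregnant against HF non pregnant mice. In the former comparison most differences exceed their standard errors, as for Cd79a (1.46, SE 0.75). In the latter most are smaller than their standard errors, as for Cd79a (-0.31, SE 0.75).

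The width of those bars came from the spread between mice. Pooled over groups, the within-group SD had a median of 1.42 (0.58 to 1.67) over the B cell genes and of 1.24 (0.15 to 1.80) over the T cell genes, on the log2 scale. Over all kept probe sets it had a median of 0.23 and a 95th percentile of 0.73. Of the 27 genes, 23 exceeded that percentile, 10 of 11 B cell and 13 of 16 T cell genes, and Pax5, Cd3e, Cd4 and Zap70 did not. Cd8b1 at 1.80, Ccr7 at 1.79 and Cd3g at 1.75 varied most, and 0.106% of kept probe sets had a larger SD than Cd3g. Nearly all of this spread was shared between the lists. The within-group SD of the B cell mean was 1.30 and that of the T cell mean 1.16, while their difference within a mouse had an SD of 0.23.

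**Figure D4:**
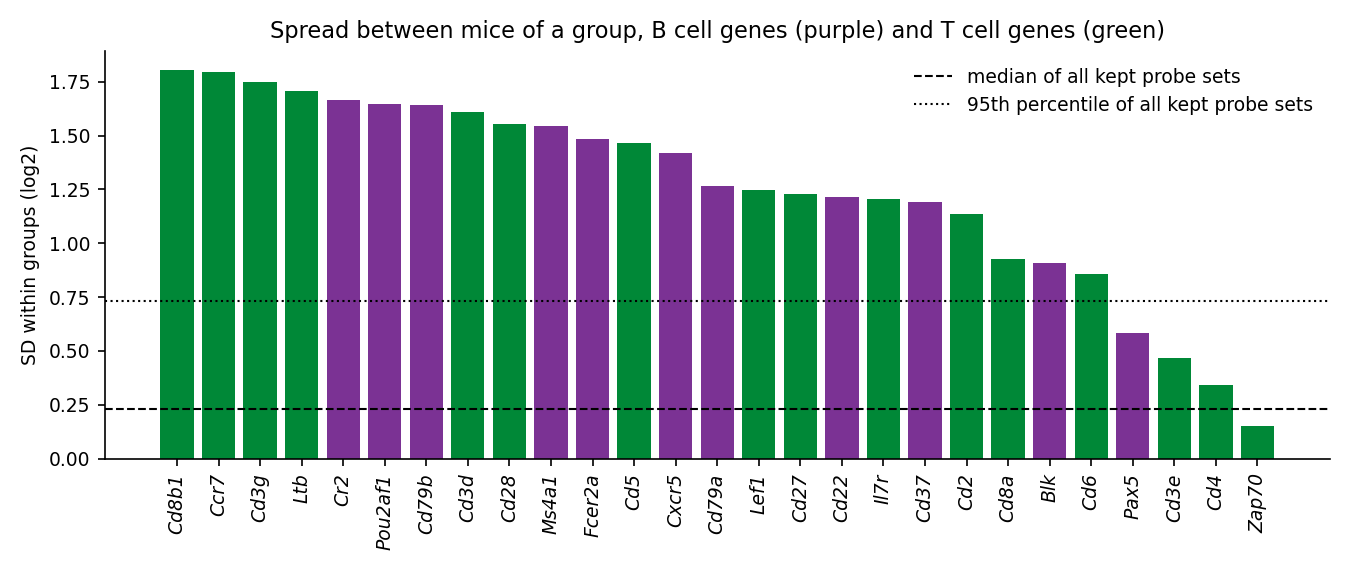
Pooled within-group SD of log2 intensity (y axis) for each measured gene, B cell genes in purple and T cell genes in green, ordered by size. The dashed line is the median (0.23) and the dotted line the 95th percentile (0.73) of the 19802 kept probe sets, and 23 of 27 bars pass the dotted line.

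B cell and T cell genes varied together within groups. As deviations from the group means, the B cell mean and the T cell mean correlated at r = 0.99 (Spearman rho 0.98, and r = 0.99 without the 2 mice farthest from the median) over 20 mice, which share the arrays and their common normalization. Single B cell genes correlated with each other at a median r of 0.98 (55 pairs), T cell genes with each other at 0.95 (120 pairs) and B with T cell genes at 0.96 (176 pairs). The balance of the lists leaned to B cell genes on the HF diet by its group means. B minus T cell mean was 0.14 ± 0.08 in HF pregnant mice, 0.22 ± 0.28 in HF non pregnant mice, -0.18 ± 0.27 in control pregnant mice and -0.19 ± 0.25 in control non pregnant mice (SD, n = 5). It was positive in 9 of 10 HF mice and negative in 7 of 10 control mice, which overlapped, and this gap was not tested. The B cell mean also varied more between mice (SD 1.30 against 1.16), and the T cell list holds the flat Cd3e, Cd4 and Zap70. B minus T was highest in HF non pregnant mouse 5 (0.66) and lowest in control pregnant mouse 1 (-0.58), the mice with the highest and lowest B cell mean. HF pregnant mouse 5, low in both lists, stood at 0.12. A shift in balance was not separated from one in overall level.

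Other genes of the same receptors and lineages behaved alike. Of 22 measured further B cell genes, which include the kinases Btk and Syk, the adaptor Blnk and the BAFF receptor Tnfrsf13c, all were higher in HF non pregnant than control non pregnant mice by their means (median 1.23), and none of these 22, all tested, was called. Tnfrsf13c differed by 2.11 and Fcrl1, a B cell Fc receptor homologue, by 1.81, both with an adjusted p of 0.281 by limma. Ebf1, a B lineage factor that fat cell precursors also use, stood apart, with a difference of 0.20 and a correlation of -0.39 with the B cell mean. Of 23 further T cell genes all were positive too (median 0.92, 0 of 20 tested called), among them the receptor zeta chain Cd247 at 0.99, the adaptor Lat at 0.83 and the T lineage factor Bcl11b at 1.45. Means of these lists correlated with the B and T cell means at r between 0.986 and 0.998.

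Markers of other cells moved with these genes and are given as measured. The 8 measured genes of lymph node stroma and follicular dendritic cells correlated as a list with the B cell mean at r = 0.96 and with the T cell mean at 0.97. Within this list Glycam1, a mucin of the high endothelial vessels of lymph nodes, ranged over 9.02 log2 units between mice (r = 0.84 with the B cell mean). Cxcl13, the chemokine that draws B cells into follicles, did so at r = 0.89, and Madcam1, a vessel ligand for homing lymphocytes, at 0.96, while Ltbr, the receptor of lymphotoxin, ran the other way at -0.86. The group means of the list were 0.45 ± 0.71 in HF pregnant mice, 0.25 ± 0.51 in HF non pregnant mice, -0.15 ± 1.04 in control pregnant mice and -0.55 ± 0.66 in control non pregnant mice (SD, n = 5). Single mice lay between -0.79 and 0.93 in HF pregnant mice, -0.49 and 0.71 in HF non pregnant mice, -1.70 and 0.85 in control pregnant mice, and -1.41 and 0.21 in control non pregnant mice. None of its 7 tested genes was called by limma in any comparison. RNA of lymph node tissue left in the fat was not separated from that of lymphocytes of the fat itself, and its part in the differences was not tested.

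Plasma cell genes followed within groups as well, at r = 0.96 with either mean. They were led by Igha, the heavy chain of IgA, and Jchain, the joining chain of immunoglobulins. Igha and Jchain were higher by 2.21 and 2.11 in HF non pregnant than control non pregnant mice (adjusted p = 0.281 each by limma). For pregnancy on the HF diet, 6 of 9 plasma cell genes were positive (median 0.11), where the B and T cell medians were -0.36 and -0.34. Averaged over diet, all 9 were positive for pregnancy (median 0.35, smallest adjusted p = 0.122 by limma). Genes of dividing cells correlated at 0.95 with the B and 0.91 with the T cell mean. All 13 measured were positive in HF non pregnant against control non pregnant mice (median 1.10, 0 of 8 tested called, and 0.0% of all kept probe sets). At an unadjusted p under 0.05 limma picked 6 of these 8, against 17.7% of all kept probe sets. The regulatory and effector T and NK genes followed as a list, at r = 0.97 with either mean. Of its 15 measured genes, 14 were positive in HF non pregnant against control non pregnant mice (median 0.44, 0 of 6 tested called). Within this list Foxp3, Gzmb and Ifng stayed under an intensity of 100 in every mouse, while Klrd1 and Nkg7 had mean log2 intensities of 8.07 and 7.50. Macrophage genes were only loosely tied, at r = 0.49 and 0.46, falling to 0.23 and 0.25 without the 2 farthest mice. Adgre1, which encodes F4/80, had r = 0.00 with the B cell mean, and Csf1r, the receptor of macrophage growth factor, had 0.85. Fat cell genes ran against the lymphocyte genes, at r = -0.84 with the B and -0.81 with the T cell mean, and pancreatic acinar genes gave 0.19 and 0.25. In HF non pregnant mouse 5, the mouse highest in B and T cell genes, the fat cell mean was the lowest of all mice at -0.87.

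**Figure D5:**
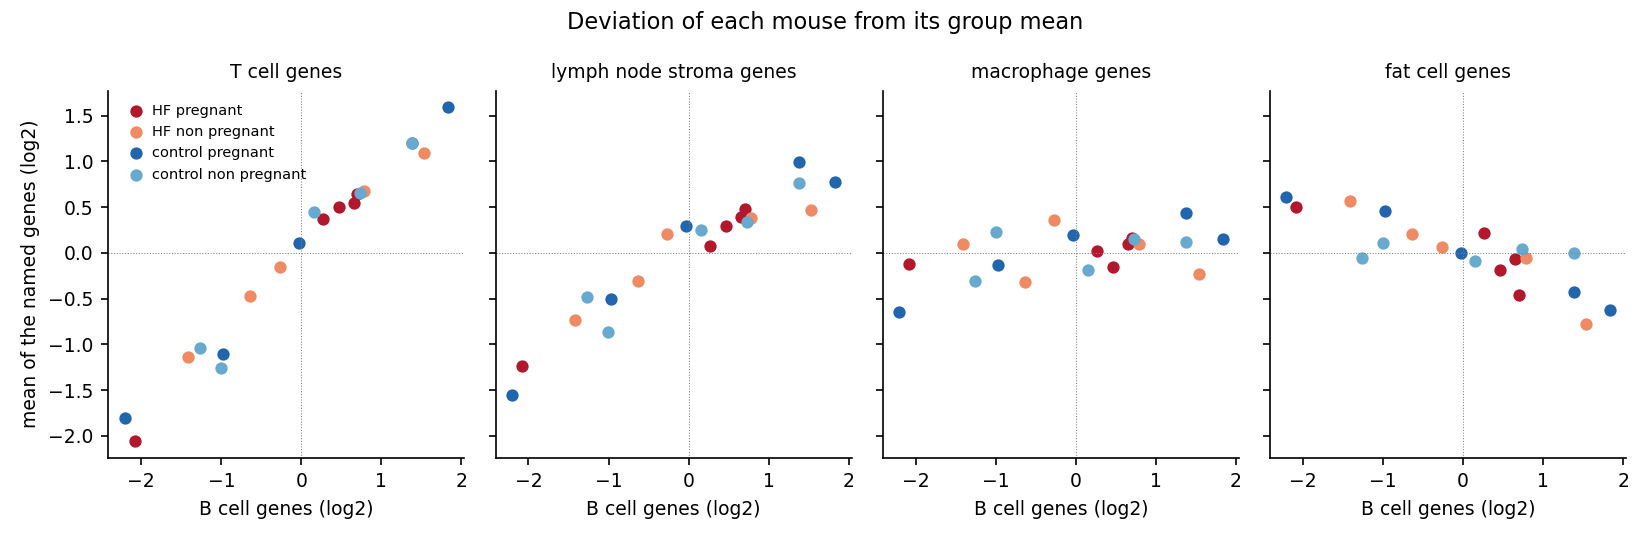
Deviation of each mouse from its group mean for the B cell genes (x axis) and for 4 other lists (y axis), in log2 units, with 1 point per mouse coloured by group. T cell genes (r = 0.99) and lymph node stroma genes (r = 0.96) climb with the B cell genes, macrophage genes (r = 0.49) hardly do, and fat cell genes (r = -0.84) go down.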

How the data were processed

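RNA of visceral fat from 20 mice was measured on 1 array per mouse, with groups taken from the pregnancy and diet in the labels. Normalization by the authors was robust multi-array average (RMA) in the affy package under R 2.8.0, and they deposited linear-scale intensities, 1 per probe set and array. The extraction is given as Trizol in the labels and as Qiagen columns in the methods, and no scan date or batch is given in the sources used here. No sequencing depth applies, and the number of arrays limits the precision.

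Log2 intensities were fitted with limma 3.58.1 (R 4.3.3) as 4 group means, with Benjamini-Hochberg adjustment over the 19802 probe sets that exceeded 100 in 5 or more of 20 arrays, 64 control probe sets left out. The fit was checked on simulated data, drawn as independent normal values for each probe set. That check does not cover genes that move together or outlying mice, as in these data. The table names 1 symbol for 34958 probe sets, several for 932 and none for 9211, and promoters were matched by symbol to RefSeq (GRCm38.p6). The rank product that the methods name was not run. All measured members are named, with every mouse for Cd79a, Cd79b, Cd3d, Cd3e, Cd3g, Cd4, Cd8a, Ms4a1, Cr2, Pax5, Ccr7 and Ltb, and of each other list up to 3 genes with the smallest p in a comparison. Every mouse for Fcer2a, Zap70 and Cd8b1, and further genes of other lists, were added after their values were seen. The members and lists were chosen with earlier results of these data known. Alternatives were other filters, moderation, array weights, scaling, floors, probe set means, a replicate block and each array left out.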

Additional observations from a re-analysis of the deposited data

Results flagged for a closer look

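HF pregnant mouse 5 lay far below the 4 other HF pregnant mice, by a gap to its nearest neighbour above the 95% limit of Dixon's test, for the means of both lists and for 25 of the 27 measured genes, all except Cd4 and Zap70. Of 116 groups of 5 mice tested, these 27 were the ones beyond the limit. By chance about 1 in 20 groups passes it, and genes that move together pass it together. The B cell mean of this mouse was -1.74 (others 0.61 to 1.04) and its T cell mean -1.86 (others 0.57 to 0.84). Its log2 intensities of the B cell genes were 5.29 for Cd79a, 7.18 for Cd79b, 8.48 for Ms4a1, 7.73 for Cd22, 5.61 for Cr2, 6.11 for Blk, 5.45 for Pax5, 6.16 for Fcer2a, 4.96 for Cxcr5, 7.09 for Cd37 and 6.483 for Pou2af1. Of the T cell receptor and coreceptor chains, log2 intensity was 6.24 for Cd3d, 7.06 for Cd3e, 5.46 for Cd3g, 5.97 for Cd8a and 4.41 for Cd8b1. It was 6.79 for Cd2, 4.53 for Cd5, 5.79 for Cd6, 4.71 for Cd27, 4.28 for Cd28, 5.16 for Ccr7, 7.10 for Il7r, 7.77 for Ltb and 6.80 for Lef1. The lymph node stroma genes of this mouse had a mean of -0.79 and its fat cell genes one of 0.27, and their part was not tested.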

How the results depend on the processing

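Of 207 counts of called members under the alternatives, 205 were 0 like the reported counts, also with each array left out in turn (lowest and highest 0 in every comparison). The exceptions were the array weights, with which limma called 12 members for the HF diet without pregnancy and 15 for HF against control averaged over pregnancy. Medians moved more. Left-out arrays moved the medians of the B and T cell genes between 1.09 and 1.87 and between 0.92 and 1.57 in HF non pregnant against control non pregnant mice, between 0.13 and 1.36 and between -0.09 and 0.92 in HF pregnant against control pregnant mice, between -0.72 and 0.16 and between -0.67 and 0.20 in pregnancy on the HF diet, between 0.02 and 1.02 and between 0.01 and 0.89 in pregnancy on the control diet, and between -1.35 and -0.31 and between -1.31 and -0.25 in the difference between the diets. For HF against control averaged over pregnancy, left-out arrays gave B cell medians between 0.876 and 1.475 and T cell medians between 0.577 and 1.09. With array weights, the pair for pregnancy on the HF diet was 0.34 and 0.29 and that for the difference between the diets -0.16 and -0.07. With intensities under 100 set to 100 the T cell median in HF non pregnant against control non pregnant mice was 0.83. Averaged over diet, the medians for pregnancy changed sign in 12 of 30 alternatives for B and 9 of 30 for T cell genes. With the replicate block, 0 members were called in each comparison, HF against control averaged over pregnancy had 19 of all kept probe sets called in place of 246, and the B cell median in HF non pregnant against control non pregnant mice stayed 1.46. Arrays of the same number in different groups had deviations that correlated at a median of -0.16 (30 pairs, -0.75 to 0.67), so the numbers were not taken as pairs. With 5 mice a group and within-group SDs above 1 for most members, the number of mice limited the precision.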

Other observations

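Among the 10577 genes outside the members, 769 correlated with the B cell mean above 0.9 as deviations from group means over the 20 mice, 584 with the T cell mean and 575 with both, while 17 lay under -0.9 with both. Most like the B cell mean were Sash3 (r = 0.998), an adaptor of lymphocytes, Ripor2, Prkcb, the protein kinase C beta of B cell receptor signalling, H2-DMb2, which loads peptides onto MHC class II, Spn, Ikzf1, the factor Ikaros, Coro1a, Rac2, Gpr18 and Arhgap45. Nearest the T cell mean were Tlr1 (r = 0.997), Gm11346, Skap1, an adaptor of the T cell receptor, Gpr174, Bcl11b, Acap1, Tbc1d10c, Ipcef1, Limd2 and Ccr9, a receptor that guides T cells to the gut. Each of these 20 genes correlated with the other mean at r of at least 0.978, so the likeness does not separate B cell from T cell genes. The points share their arrays and normalization, and the correlations are descriptions.

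The intestinal epithelium list, a possible trace of tissue beside the depot, was high in control pregnant mouse 2 alone, at a mean log2 deviation of 1.84, the mouse that was also highest in pancreatic genes. Its correlation with the B cell mean was 0.43. Pancreatic genes were raised to 1.97 in control pregnant mouse 5 as well.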
